A study of Caenorhabditis elegans with 20 samples.

Results

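Whole-worm RNA of Caenorhabditis elegans transgenic control animals was compared between Day 13 of adulthood and the last larval stage, L4. The members were the 5 Day 13 libraries and the 5 L4 libraries of the control strain, 10 of the 20 libraries of the series, chosen by their titles and paired by the letter A to E that each title carries. Day 13 animals were moved to plates with FUDR, a drug that blocks DNA synthesis and so the production of progeny, on Day 1 of adulthood. They were washed over nylon mesh on several days to remove eggs and offspring, and dead animals were picked off before collection. L4 larvae came from plates of Escherichia coli without FUDR. The strain label of all 10 libraries was SD1965, a strain that carries the RNAi-defective allele rde-1(ne300) and the allele unc-119(ed3), with an unc-119(+) plasmid without elt-2 on an extrachromosomal array. It was 1 line. By that label both ages carried the same alleles and array, but the growth protocol attached to the samples names N2, the wild type, for larvae grown to L4, so a shared genotype rests on the strain label alone. In the methods of the study SD1965 names this control strain, and in 1 place also a line that overexpresses elt-2. Each library was made from a large synchronized population, and 5 biological replicates per group were stated. Age, the larva-to-adult step and exposure to FUDR went together in this design and cannot be told apart.

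An L4 hermaphrodite is still moulting, feeding and building its gonad, and in this stage its germ line makes sperm before it switches to oocytes for the rest of life. The larva replaces its collagen cuticle at each moult, whereas the adult keeps its last cuticle. In the adult, the intestine makes yolk for the oocytes and the uterus fills with fertilized or, once sperm run out, unfertilized eggs. Aged hermaphrodites are known for loss of muscle structure, a slow pharynx, uterine masses of oocyte DNA and yolk in the body cavity.

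The method was 3SEQ, in which a read comes from the 3′ end of a polyadenylated transcript, so that long and short genes yield similar numbers of reads. The libraries held 10749795 to 35201428 counts at Day 13 and 18653974 to 42317549 counts at L4, with letters D and E the shallowest at both ages. The top 3% of genes took 90.8% to 96.1% of a library. Levels below are CPM, the count of a gene divided by the library total in units of 1000000, where the total was first scaled by its TMM factor, and 3 counts, the upper limit that a count of 0 allows, came to 0.0709 to 0.279 CPM of the plain totals. Changes are log2 of Day 13 over L4 ± SE from an edgeR quasi-likelihood fit with the letter as a block, called at a Benjamini-Hochberg adjusted p under 0.10.

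Of 9063 genes that passed the filter on low counts, 5280 (58.3%) were called. At Day 13, 2568 (28.3%) were higher and 2712 (29.9%) were lower, and the median over all genes tested was 0.10. On TMM-scaled values the decreases were larger: 1501 called genes were at least 4-fold lower against 720 at least 4-fold higher, and 592 were at least 16-fold lower against 199 at least 16-fold higher. These counts by fold depend on the scaling too and were not made under another one. The libraries of the ages did not overlap at 1108 genes higher at Day 13 (12.2%) and 1204 lower (13.3%). The even split of calls depends on how libraries are scaled: with plain library totals the all-gene median was 1.03, and 4804 genes were higher and 1631 lower. With totals that leave out the top 3% of genes the median was 0.36, and 3151 were higher and 2284 lower. A list median is therefore to be read against 0.10, and with plain library totals against 1.03. The change of scaling shifts all genes of a library alike, but by amounts that differ between libraries. The TMM factors were 0.87 to 2.44 at Day 13 and 0.565 to 1.27 at L4. Counts of members called are to be read against 28.3% higher and 29.9% lower. In whole worms, fewer cells of a type and less RNA per cell cannot be told apart.

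**Figure D1:**
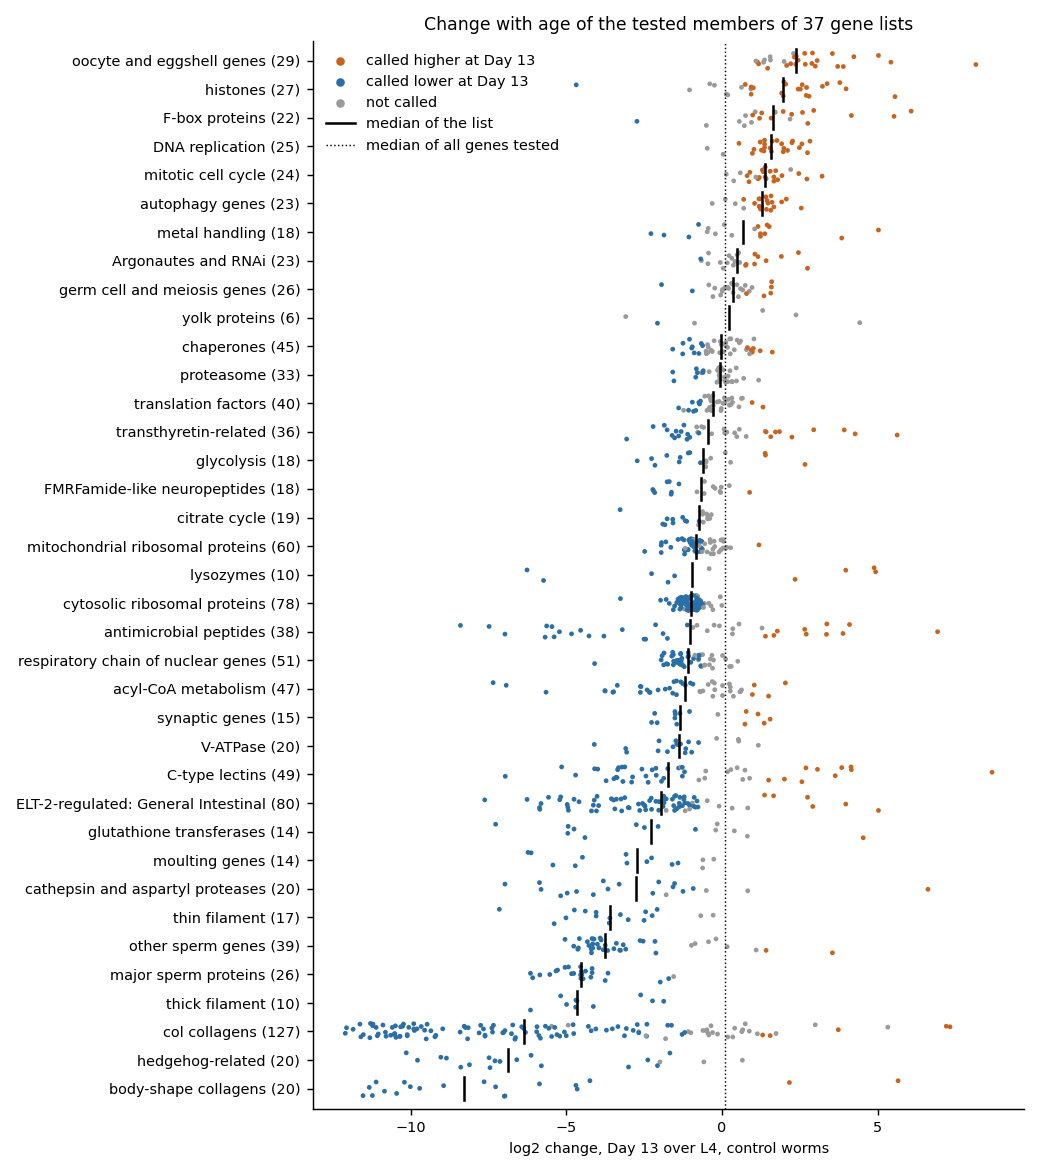
Log2 change, Day 13 over L4, of each tested member of 37 gene lists in control worms (points, coloured by call), with the median of each list as a bar and the all-gene median of 0.10 as a dotted line; the number in brackets is the number of members tested. Oocyte and eggshell genes have the highest median, 2.39, and body-shape collagens the lowest, -8.29. With plain library totals the all-gene median is 1.03 and list medians shift up with it. Those of chaperones, proteasome, translation factors, transthyretin-related genes, glycolysis, FMRFamide-like neuropeptides, citrate cycle and mitochondrial ribosomal proteins then lie above 0.

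The libraries also parted by letter. The first principal component (54.1% of the variance) separated the ages, and the second (31.4%) set D and E apart from the other letters. The labels give no batch for these sets. Some genes of adult reproduction and of the adult cuticle showed the difference between the sets at L4. col-19, known as a collagen of the adult cuticle, was at 395, 1070, 487, 367 and 230 CPM at Day 13 in letters A to E, against 8470, 4870, 7570, 1.39 and 1.35 CPM at L4. vit-6, a yolk protein gene, was at 1810, 5020, 2680, 552 and 819 CPM at Day 13, against 7280, 4520, 6780, 7 and 1.94 CPM at L4. Both genes were thus at 4520 CPM or more in the L4 libraries of A to C and under 10 CPM in those of D and E. They and the few other genes named below from outside the naming rule given under the processing of the data were picked after their values were seen. The age change of 2710 of 9063 genes differed between the sets (edgeR interaction of age with set, adjusted p under 0.10, a test added after the sets were seen; 3244 at an unadjusted p under 0.05), 1522 towards higher and 1188 towards lower changes in D and E. What part the difference between the L4 libraries has in a result was not tested. Within-set changes are given below for some lists and genes, and not for every one that differed. A pooled median without them need not hold in both sets. The filter on low counts was run anew within each set, so the members tested can differ between the fits.

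**Figure D2:**
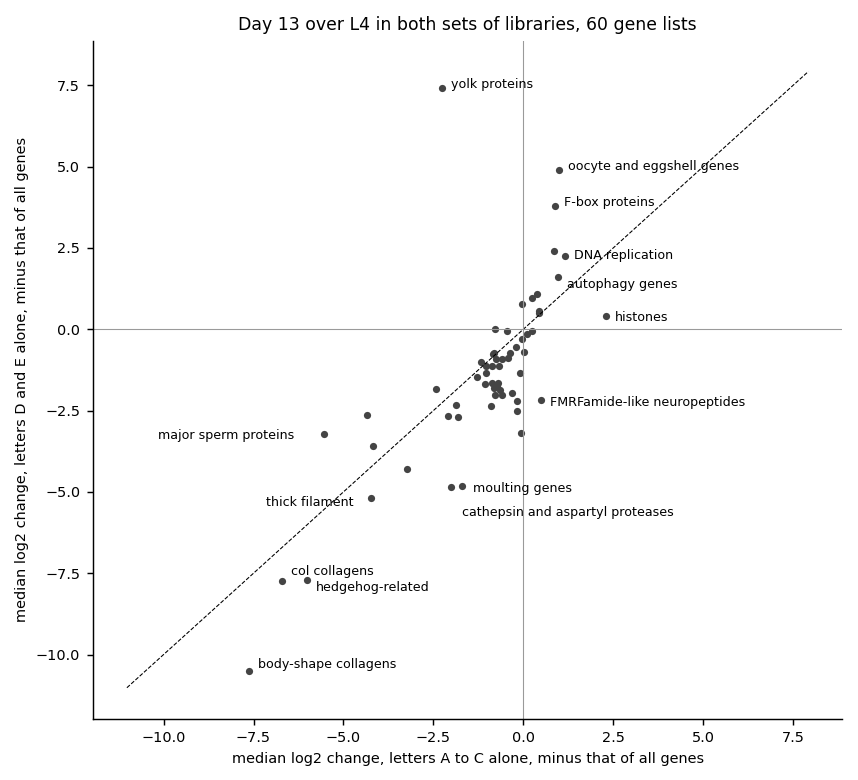
Median log2 change of 60 gene lists, Day 13 over L4, minus the all-gene median of the same fit: letters A to C alone on the horizontal axis, letters D and E alone on the vertical axis, 1 point per list, with the line of equal change dashed. Collagens and muscle lists lie at the lower left in both sets and oocyte and eggshell genes at the upper right, while yolk proteins (medians -2.22 in A to C and 7.63 in D and E before the subtraction) lie at the upper left.

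Markers of tissues were read first as a check. None of 16 tested intestine markers was higher and 11 were lower (median -2.37). Of 9 body wall muscle markers, 8 were lower (median -4.69), as were 4 of the 5 pharynx markers that passed the filter (-2.24) and 5 of 9 hypodermis markers (-7.27), with 1 hypodermis marker higher. Of 7 neuron markers, 5 were lower and 2 higher (-1.35, 3 lower without letter D, and 1 lower and 2 higher with plain library totals). All 8 sperm markers that passed were lower (-3.87), while 8 of 13 germ cell and oocyte markers were higher and 1 was lower (1.57, 3 higher without D and 5 without E). The summed level of intestine markers was 0.304% to 0.791% of a library at Day 13 and 0.389% to 0.795% at L4, so these shares overlapped. Yolk genes carried most of it at Day 13: the 14 intestine markers other than vit-2 and vit-6 held 0.0324% to 0.0522% at Day 13 and 0.127% to 0.497% at L4, without overlap. The body wall muscle markers also lay apart, at 0.00465% to 0.014% at Day 13 and 0.112% to 0.25% at L4. Of 9 early embryo markers only ceh-51, a homeobox gene of the early mesoderm, passed the filter. It was at 4.77 to 13.7 CPM at Day 13 and 0.0422 to 0.251 CPM at L4 (log2 change 6.03 ± 0.44, adjusted p = 5.75e-05). Embryos inside the adults would not have been removed by the washes, and their part in this level was not tested.

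Cuticle collagens were, of the lists counted, the one with the most members lower at Day 13. Of 127 tested col collagens, the structural proteins of the worm's exoskeleton, 96 were lower and 5 higher at Day 13 (median -6.37), and the ages did not overlap at 83 of the lower ones. Their share of the library was 1.01% to 1.99% at Day 13 and 2.36% to 10.6% at L4. Of 20 collagens whose mutants have altered body shape, 18 were lower and 2 were higher (median -8.29). dpy-13, whose loss makes short, fat worms, was at 4.01, 1.67, 1.87, 0.65 and 0.114 CPM at Day 13, against 1670, 8510, 2310, 1570 and 4180 CPM at L4. Every Day 13 library lay under every L4 library (log2 change -11.33 ± 1.1, adjusted p = 0.000112). The body-shape collagens dpy-5 (-9.71 ± 0.75) and dpy-4 (-11.53 ± 1.01) fell likewise.

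The family was not uniform. col-95 was at 343, 783, 336, 194 and 151 CPM at Day 13, against 68.9, 2.37, 37.4, 0 and 0.0588 CPM at L4 (log2 change 7.33 ± 2.00, adjusted p = 0.0171, and no call without letter E). col-183 measured 19.1 to 72.3 CPM at Day 13 and 0 to 0.603 CPM at L4 (7.21 ± 0.57, adjusted p = 6.02e-05). The body-shape collagen genes dpy-14 (5.66 ± 0.48, adjusted p = 7.08e-05) and dpy-17 (2.17 ± 0.48, adjusted p = 0.0062) were higher at Day 13. col-139 was at 7.87, 4.11, 4.7, 0.743 and 0.915 CPM at Day 13, against 7230, 7450, 8300, 2.11 and 2.12 CPM at L4, so its large decrease lay in A to C (log2 change -10.49) and was small in D and E (-1.32; difference between sets, adjusted p = 4.41e-07). Over all letters it was -8.17 ± 2.67 (adjusted p = 0.0346), and the call was lost without letter A, B or C. The log2 change of col-19 itself was -3.54 in A to C and 7.77 in D and E, and it was not called over all letters (adjusted p = 0.794).

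Genes that act in moulting were also lower. Of 14 tested moulting genes 11 were lower and none higher (median -2.73, 7 to 13 lower when a letter was left out, the fewest without B). Their median was -1.65 in A to C and -4.62 in D and E. mlt-10, a gene of the moulting hypodermis, was at 0.457 to 3.9 CPM at Day 13 and 8.53 to 99.6 CPM at L4 (-4.48 ± 0.67, adjusted p = 0.000945), and the hedgehog-related qua-1 fell by 6.13 on the log2 scale. Hedgehog-related proteins are secreted by the worm's epithelia, and of 20 tested 17 were lower and none higher (median -6.86). grd-3, of the groundhog branch, was at 0.734, 0.424, 0.692, 0.309 and 0.229 CPM at Day 13, against 510, 78.9, 371, 120 and 183 CPM at L4. The groups lay far apart in every letter (log2 change -8.85 ± 0.54, adjusted p = 5.28e-05). Of the patched-related receptors, 2 of 11 tested were higher and 3 lower (-1.1, none higher without D and 1 without E). cut-2, a cuticlin, one of the cross-linked cuticle proteins, was at 0.419 to 4.66 CPM at Day 13 and 420 to 3140 CPM at L4 (-9.39 ± 0.98, adjusted p = 0.000154). Of all cuticlins, 4 of 7 tested were lower (median -1.2, 1 to 3 when a letter was left out, the fewest without B). The cuticlin median was -0.03 in A to C and -2.97 in D and E. Of 45 tested abu and pqn genes, whose proteins are rich in glutamine and asparagine, 11 (24.4%, against 28.3% of all genes) were higher. Among them was pqn-83 (1.12 ± 0.31). Another 20 (44.4%, against 29.9% of all genes) were lower, among them abu-15 (-11.12 ± 0.85) and pqn-54 (-6.32 ± 0.40). The median of all 45 was -0.41, 0.51 with plain library totals.

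Muscle genes fell together. All 10 tested genes of the thick filament, the myosin side of the contractile apparatus, were lower at Day 13 (median -4.67), and the ages did not overlap at any of them. Of 17 genes of the thin filament, the actin and troponin side, 15 were lower and none higher (-3.60). The thick filament list held 0.0169% to 0.0207% of a library at Day 13 and 0.193% to 0.32% at L4. unc-54, the major myosin heavy chain of body wall muscle, was at 6.18, 8.65, 6.4, 1.58 and 1.49 CPM at Day 13, against 271, 413, 352, 192 and 205 CPM at L4. It fell by 6.15 ± 0.47 on the log2 scale (adjusted p = 5.82e-05), with -5.61 in A to C and -6.97 in D and E. mlc-2, a myosin light chain, was at 114, 128, 120, 55.8 and 51.8 CPM at Day 13, against 2190, 2250, 2380, 1810 and 2880 CPM at L4 (-4.70 ± 0.41, adjusted p = 7.52e-05). mlc-2 has a near-identical neighbour, mlc-1, so counts may be split between them.

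The troponin C gene pat-10, whose product senses calcium, was at 201, 201, 172, 48.6 and 28.3 CPM at Day 13, against 2780, 4020, 4060, 1410 and 2190 CPM at L4. It fell by 4.74 ± 0.46 on the log2 scale (adjusted p = 0.000112). The troponin I gene unc-27 (-5.39 ± 0.49) and the troponin T gene mup-2 (-5.01 ± 0.54) fell with it. Of 12 genes of the attachment of muscle to its surroundings, 10 were lower and 1 higher (median -2.1). tln-1, the talin gene, was at 3.97 to 5.95 CPM at Day 13 and 15.4 to 29 CPM at L4 (-2.0 ± 0.28, adjusted p = 0.000629), and unc-95 (-3.20 ± 0.40) and zyx-1 (-2.78 ± 0.34) also fell. The exception was pat-3, the beta integrin gene (0.80 ± 0.28, adjusted p = 0.0434), whose call was lost without letter D (adjusted p = 0.136).

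**Figure D3:**
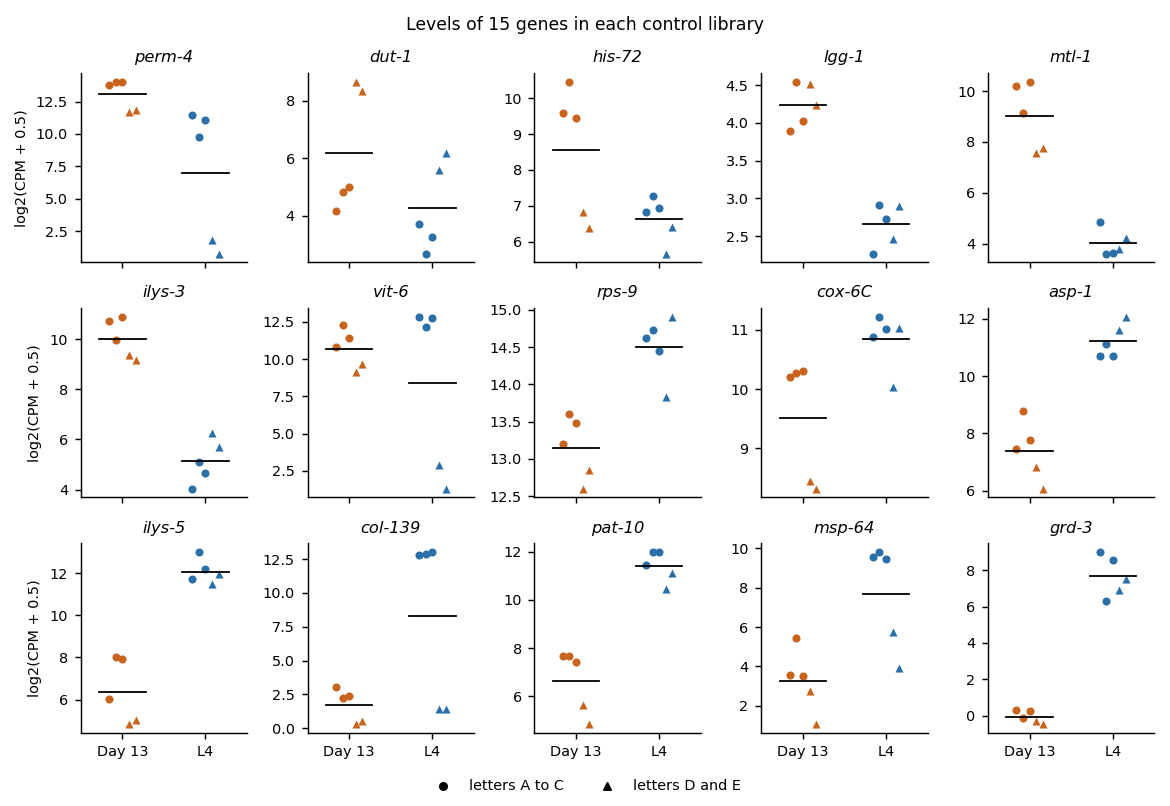
Levels of 15 genes in the 10 control libraries, as log2(CPM + 0.5), Day 13 left and L4 right in each panel; circles are letters A to C, triangles letters D and E, and bars the mean of 5 libraries. The ages lie apart in every letter for pat-10, grd-3, asp-1 and ilys-5 (lower at Day 13) and for perm-4, mtl-1, ilys-3 and lgg-1 (higher at Day 13), while col-139 and vit-6 at L4 split by set of letters.

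Sperm genes were lower at Day 13. Major sperm proteins form the cytoskeleton with which worm sperm crawl. Of 26 tested, 25 were lower and none higher (median -4.52), but the ages did not overlap at only 3 of them, since the L4 libraries of D and E were low. The family held 0.0147%, 0.0306%, 0.0123%, 0.0164% and 0.00396% of the library at Day 13, against 0.481%, 0.415%, 0.436%, 0.0711% and 0.0101% at L4. msp-64 was at 11.3, 43.1, 11, 6.31 and 1.6 CPM at Day 13, against 758, 901, 699, 53.8 and 14.6 CPM at L4. It was lower in each of the 5 letters although L4 E lay within the Day 13 range (log2 change -4.54 ± 0.64, adjusted p = 0.000663; -5.49 in A to C and -3.10 in D and E). These genes are near-identical copies, and counts of single members are uncertain.

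Other sperm genes followed, with 31 of 39 tested lower and 2 higher (median -3.75). nspd-2, a small sperm protein gene with near-identical relatives, was at 43.7, 171, 33.9, 12.9 and 2.86 CPM at Day 13, against 1980, 2770, 2930, 96 and 21.3 CPM at L4. It too was lower in every letter (-4.32 ± 0.66, adjusted p = 0.001). ssq-1 fell by 4.15 ± 0.90 on the log2 scale (adjusted p = 0.00602), by 5.57 in A to C and 1.71 in D and E. The exceptions were ssp-37 (3.98 to 9.2 CPM at Day 13 and 0 to 2.85 CPM at L4, 3.55 ± 1.03, adjusted p = 0.0209) and spe-48 (1.42 ± 0.50, adjusted p = 0.0436), the last with no call without D or E (highest adjusted p = 0.126).

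Oocyte and eggshell genes had the highest median of the 37 lists plotted. Of 29 tested 22 were higher at Day 13 and none lower (median 2.39), with 1.05 in A to C and 5.09 in D and E. Between 16 and 29 were higher when a letter was left out. They held 2.36%, 2.25%, 2.57%, 1.71% and 1.74% of the library at Day 13, against 0.358%, 0.0984%, 0.285%, 0.00657% and 0.00298% at L4. perm-4, a gene of the eggshell's permeability barrier, was at 14300, 16600, 16400, 3340 and 3670 CPM at Day 13, against 2870, 887, 2200, 2.95 and 1.18 CPM at L4. It was among the 10 most abundant genes at Day 13, and its lowest Day 13 library lay above its highest L4 library (log2 change 5.43 ± 1.68, adjusted p = 0.0284). The change was 3.13 in A to C and 10.84 in D and E, a difference with an adjusted p of 5.31e-06.

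perm-2, of the same barrier, was at 5850, 6780, 6910, 1970 and 1580 CPM at Day 13, against 1520, 477, 1300, 1.81 and 0.647 CPM at L4 (5.03 ± 1.71, adjusted p = 0.0397, 0.128 without letter E). cpg-1, an eggshell chondroitin proteoglycan, was at 1080, 1120, 1330, 481 and 506 CPM at Day 13, against 577, 105, 396, 10.1 and 6.82 CPM at L4. Every letter was higher at Day 13, with overlap between L4 A and Day 13 D and E (3.55 ± 0.92, adjusted p = 0.0129). oma-2, a regulator of oocyte maturation, was at 4.54 to 15.4 CPM at Day 13 and 0.235 to 3.14 CPM at L4 (3.00 ± 0.85, adjusted p = 0.0191).

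Yolk protein genes did not move in 1 direction. Of 6 tested, none was called higher and vit-1 was called lower (-2.07 ± 0.94, adjusted p = 0.0988), a call lost without letter A, B, C or D (highest adjusted p = 0.332). The yolk proteins together held 0.379%, 0.795%, 0.482%, 0.37% and 0.354% of the library at Day 13, against 0.827%, 0.333%, 0.716%, 0.00216% and 0.000336% at L4. Their share thus overlapped between ages in A to C and lay far apart in D and E. vit-2 was at 1460, 3470, 1800, 565 and 409 CPM at Day 13, against 3620, 1030, 3590, 4.81 and 0.47 CPM at L4 (2.38 ± 2.02, adjusted p = 0.352). The age change of vit-2 was -0.26 in A to C and 8.02 in D and E (difference between sets, adjusted p = 0.00181), and that of vit-6 was -1.08 and 7.47 (adjusted p = 0.000126). The median of the list was 0.22, with -2.22 in A to C and 7.63 in D and E. vit-1 lay at 1.42 to 15.5 CPM at Day 13 and 1.23 to 328 CPM at L4.

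Germ cell and meiosis genes gave few calls, 5 higher and 2 lower of 26 tested (median 0.36, 15 higher with plain library totals, 3 higher without the letter block and 3 without letter D). Those higher included gld-1, a translational regulator of early meiosis, at 3.66 to 5.98 CPM at Day 13 and 0.47 to 5.32 CPM at L4 (1.57 ± 0.55, adjusted p = 0.0427, 0.134 without D). glh-1, a helicase of the germ granules, was lower, at 22.1 to 104 CPM at Day 13 and 121 to 246 CPM at L4 (-1.94 ± 0.45, adjusted p = 0.00823). The meiotic axis gene htp-1 was the other that fell (-0.95 ± 0.26, adjusted p = 0.0165).

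Genes of DNA replication were higher at Day 13. Of 25 tested, 23 were higher and none lower (median 1.59, 1.21 in A to C and 2.47 in D and E), against 28.3% of all genes. They held 0.0842% to 0.213% of a library at Day 13 and 0.0139% to 0.0307% at L4, without overlap. dut-1, the deoxyuridine triphosphatase that keeps uracil out of DNA, was at 17.4, 27.6, 31.3, 404 and 323 CPM at Day 13, against 12.5, 5.86, 9.11, 47.4 and 71.4 CPM at L4. It was higher at Day 13 in every letter and higher in D and E than in A to C at both ages (log2 change 1.97 ± 0.43, adjusted p = 0.00623). pcn-1, the sliding clamp of the replication fork, was at 13.5 to 40.1 CPM at Day 13 and 2.41 to 7 CPM at L4 (2.49 ± 0.46, adjusted p = 0.00252). The primase subunit pri-2 rose by 1.27 ± 0.34 (adjusted p = 0.015).

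Genes of the mitotic cycle followed the same course, 19 of 24 higher and none lower (median 1.39, 0.9 in A to C and 2.62 in D and E). cyb-3, a B-type cyclin, was at 11.4 to 32.5 CPM at Day 13 and 1.1 to 3.77 CPM at L4, without overlap (3.22 ± 0.53, adjusted p = 0.00142). klp-7, a kinesin that takes microtubules apart, rose by 1.16 ± 0.37 (adjusted p = 0.0317). cyk-4, a regulator of cytokinesis, was at 301, 286, 253, 50.3 and 46 CPM at Day 13, against 157, 113, 181, 30.4 and 25 CPM at L4. It was higher in each letter, with overlap between the sets (0.87 ± 0.31, adjusted p = 0.0466, 0.114 without D).

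Genes named his, the core histones with the linker histone H1 gene his-24 (log2 change 2.45), were higher too, 19 of 27 tested against 1 lower (median 1.97), and here the change was larger in A to C (2.34) than in D and E (0.63). In A to C alone 23 of 28 were called higher, against 2509 of 8938 genes in that fit. In D and E alone 9 of 29 were higher and 2 lower, against 3291 higher of 9652 genes, so there the histones were near the share of all genes. Histone genes held 0.128% to 0.285% of a library at Day 13 and 0.0321% to 0.0635% at L4. his-72, a replacement histone H3, was at 773, 1410, 702, 114 and 82.7 CPM at Day 13, against 114, 154, 123, 50.1 and 84.8 CPM at L4. It was higher in 4 of 5 letters (1.97 ± 0.55, adjusted p = 0.0181), by 2.82 in A to C and 0.62 in D and E (difference between sets, adjusted p = 0.014). his-41, a histone H2B gene, rose by 2.71 ± 0.59 (adjusted p = 0.00606), and the exception was his-70, at 0 to 0.804 CPM at Day 13 and 0.126 to 17.9 CPM at L4 (-4.68 ± 0.68, adjusted p = 0.000779). Most histone messages end without a poly-A tail and occur in near-identical copies, so 3SEQ counts of them are uncertain.

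Ribosomal proteins held over 54% of every library. Their share was 54.6%, 58.1%, 55.7%, 57.7% and 62.4% at Day 13, against 57.7%, 54.9%, 55%, 62.7% and 66.6% at L4, higher at Day 13 in 2 of 5 letters. On TMM-scaled values 68 of 78 tested cytosolic ribosomal proteins were called lower and none higher (median -0.98), whereas with plain library totals 9 were higher and 19 lower (median -0.05). The count of lower genes was 32 without the letter block and 33 without A, 33 without C and 39 without D. rps-9 was at 9400, 12400, 11400, 6200 and 7400 CPM at Day 13, against 25300, 27100, 22400, 14600 and 30700 CPM at L4 (-1.36 ± 0.27, adjusted p = 0.00351), with no overlap. rps-25 was at 19700, 23800, 24400, 6640 and 8570 CPM at Day 13, against 39300, 35400, 35500, 15200 and 27900 CPM at L4. It was lower in every letter (-1.0 ± 0.27, adjusted p = 0.0152, 0.106 without A). Of the 10 genes with the highest mean at each age, all 10 at L4 and 9 at Day 13 were ribosomal protein genes.

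Mitochondrial ribosomal proteins lay nearly as far under the all-gene median as the cytosolic ones, with a median of -0.92 relative to it under either scaling, against -1.08. They were lower in 36 and higher in 1 of 60 tested (median -0.82), but 5 were lower and 9 higher with plain library totals (0.11), and 16 were lower without the block, 17 without A, 15 without B and 13 without C. The other lists of protein synthesis and folding lay closer to the all-gene median. Relative to it the medians were -0.40 for translation factors, -0.53 for aminoacyl-tRNA synthetases, -0.17 for the proteasome and -0.12 for chaperones, and -0.39, -0.51, -0.17 and -0.11 with plain library totals. Translation factors were higher in 2 and lower in 8 of 40 (-0.30), and higher in 23 and lower in none with plain library totals (0.63). The 8 were 3 without the block, 3 without A, 2 without B and 2 without C. Aminoacyl-tRNA synthetases were higher in 2 and lower in 8 of 31 (-0.43, 0.51 with plain library totals), with 3 lower without the block and 4 without B or C, and none higher without the block or without D and 1 without A. The initiation factor inf-1, an RNA helicase, was at 4.96 to 9.76 CPM at Day 13 and 14.1 to 22.9 CPM at L4 (-1.39 ± 0.27, adjusted p = 0.00369). mrpl-48, of the mitochondrial ribosome, rose by 1.19 ± 0.31 (adjusted p = 0.0133), and fars-3, a phenylalanyl-tRNA synthetase, fell by 1.44 ± 0.30 (adjusted p = 0.00498).

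Proteasome genes were lower in 7 and higher in none of 33 (median -0.07), and higher in 18 and lower in 1 with plain library totals (0.86). The 7 were 1 without the block, 2 without A, B or C and 4 without E, and 1 was higher without D and 2 without E. Their share of the library was 0.175% to 0.23% at Day 13 and 0.107% to 0.159% at L4, higher in all 5 letters. Chaperones were higher in 7 and lower in 10 of 45 (-0.02), and higher in 26 and lower in 1 with plain library totals (0.92). Without the block 4 were higher and 3 lower, without D 4 were higher, and 6, 3 and 5 were lower without A, B and C. hsp-60, the mitochondrial chaperonin, was at 7.86 to 9.84 CPM at Day 13 and 23.1 to 36.3 CPM at L4 (-1.58 ± 0.28, adjusted p = 0.00219), and the DnaJ protein gene dnj-12 was higher in every letter, without overlap (0.96 ± 0.27, adjusted p = 0.0187).

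Small heat shock proteins, which hold unfolded proteins in solution, took 0.813% to 1.71% of a library at Day 13 and 0.0283% to 0.378% at L4. sip-1 alone, known from oocytes and embryos, held 0.809% to 1.7% at Day 13 and 0.0115% to 0.37% at L4. It was at 8710, 9300, 9600, 5480 and 6980 CPM at Day 13, against 6040, 1030, 3150, 141 and 157 CPM at L4. It was higher in every letter (3.23 ± 0.85, adjusted p = 0.0139), by 1.76 in A to C and 5.42 in D and E. Among the 5 tested members 2 were higher and 3 lower (median -0.62, 0.31 with plain library totals), with 1 higher without D or E and none without the block. hsp-12.2 was lower without overlap, at 5.61 to 32.7 CPM at Day 13 and 108 to 178 CPM at L4 (-3.05 ± 0.54, adjusted p = 0.00213), as was hsp-25 in every letter (-1.83 ± 0.44, adjusted p = 0.00958).

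**Figure D4:**
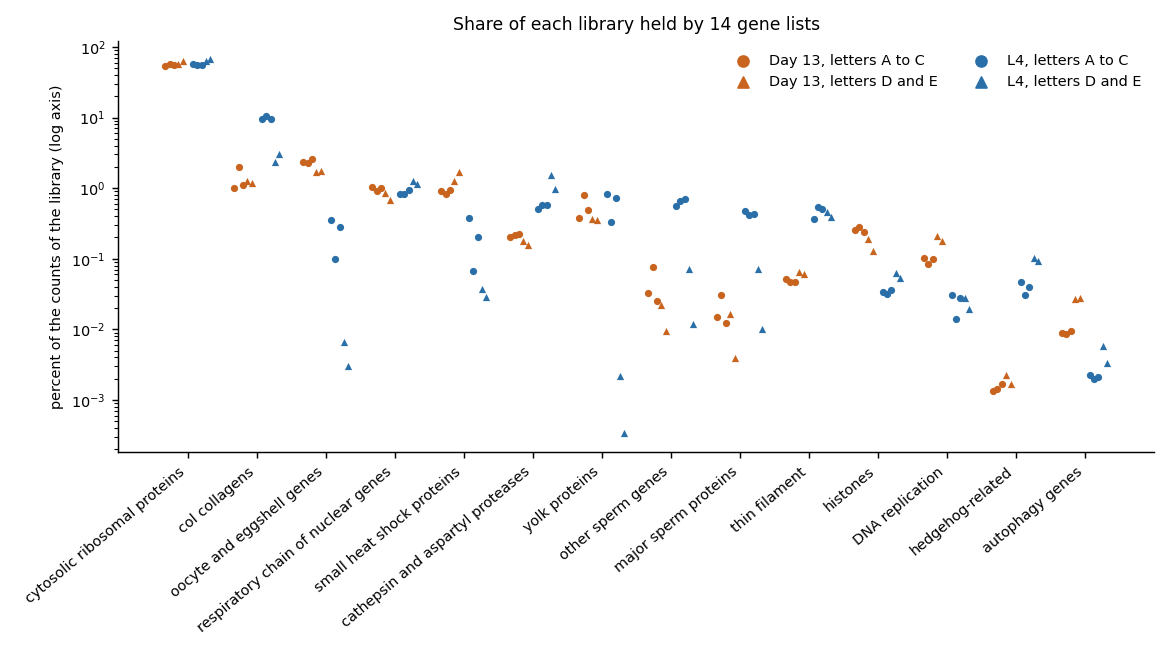
Percent of the counts of each control library held by 14 gene lists, on a log axis; Day 13 libraries are left of L4 libraries for each list, circles are letters A to C and triangles letters D and E. Ribosomal proteins hold 54.6% to 62.4% at Day 13 and 54.9% to 66.6% at L4, while oocyte and eggshell genes hold 1.71% to 2.57% at Day 13 and 0.00298% to 0.358% at L4.

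On TMM-scaled values genes of energy metabolism were mostly lower. Of 51 nuclear genes of the respiratory chain 34 were lower and none higher (median -1.09, -0.73 in A to C and -1.82 in D and E). That count was 19 without the block and 8 with plain library totals (4 higher, median -0.16). As a share of the library these nuclear genes were higher at Day 13 in A to C and lower in D and E. cox-6C, a subunit of cytochrome c oxidase, was at 1180, 1240, 1260, 349 and 319 CPM at Day 13, against 1890, 2380, 2070, 1050 and 2090 CPM at L4, lower in each letter with overlap between the sets (-1.31 ± 0.39, adjusted p = 0.0233). hpo-18, the epsilon subunit of ATP synthase, was at 1300, 1560, 1210, 228 and 163 CPM at Day 13, against 2350, 3540, 3810, 635 and 994 CPM at L4. It was lower in every letter, though Day 13 A to C lay above L4 D and E (-1.55 ± 0.35, adjusted p = 0.00696).

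Of 14 tested features of the mitochondrial genome 11 were lower and 1 higher (median -1.65, and -1.65 in both sets of letters, -0.72 with plain library totals), and none of the 11 overlapped between ages. ND1, a subunit of complex I, was at 38.4, 29.5, 37.2, 50.5 and 57.2 CPM at Day 13, against 105, 108, 89.5, 117 and 184 CPM at L4. The groups were apart in every letter (-1.50 ± 0.30, adjusted p = 0.004). COX3, of complex IV (-1.74 ± 0.34, adjusted p = 0.00346), and ND6, of complex I (-2.32 ± 0.36, adjusted p = 0.00104), fell likewise.

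In glycolysis 3 of 18 genes were higher and 9 lower (median -0.61, 0.32 with plain library totals, 4 lower without the block), and copies of glyceraldehyde-3-phosphate dehydrogenase went opposite ways. gpd-1 was at 35.8 to 170 CPM at Day 13 and 5.36 to 71.5 CPM at L4 (2.67 ± 0.49, adjusted p = 0.00268), and gpd-4 was also higher (1.39 ± 0.44, adjusted p = 0.0298). gpd-3 was at 4.67 to 25.7 CPM at Day 13 and 14.6 to 270 CPM at L4 (-2.15 ± 0.43, adjusted p = 0.00404), and gpd-2 was lower with it (-2.72 ± 0.44, adjusted p = 0.00142). gpd-1 with gpd-4 and gpd-2 with gpd-3 are near-identical in sequence, so counts within each couple are uncertain. The aldolase aldo-1, lower at 18.4 to 163 CPM at Day 13 against 258 to 370 CPM at L4 (-2.26 ± 0.56, adjusted p = 0.011), did not overlap.

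In the citrate cycle 10 of 19 genes were lower and none higher (median -0.75, 0.18 with plain library totals), among them the citrate synthase cts-1 (-1.57 ± 0.37, adjusted p = 0.00829) and the succinyltransferase dlst-1 (-1.76 ± 0.29, adjusted p = 0.0015). The share of the library held by citrate cycle genes was higher at Day 13 in A to C and lower in D and E. pck-1, which starts the making of glucose from oxaloacetate, was at 12.9 to 58.5 CPM at Day 13 and 140 to 316 CPM at L4 (-2.82 ± 0.53, adjusted p = 0.00305). Of 20 subunits of the V-ATPase, the proton pump of lysosomes and gut, 16 were lower and none higher (median -1.37, 7 lower and 4 higher with plain library totals, -0.44). vha-10 was at 4.49 to 7.7 CPM at Day 13 and 7.84 to 40 CPM at L4, just apart (-1.57 ± 0.33, adjusted p = 0.00498).

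Digestive enzymes of the gut were mostly lower. Of 20 cathepsin and aspartyl protease genes 16 were lower and 1 higher (median -2.76, -1.97 in A to C and -4.63 in D and E). They held 0.156% to 0.225% of a library at Day 13 and 0.509% to 1.52% at L4. asp-1, an intestinal aspartyl protease, was at 176, 436, 216, 112 and 66.7 CPM at Day 13, against 1660, 2200, 1650, 3100 and 4270 CPM at L4, far apart in every letter (-3.81 ± 0.61, adjusted p = 0.00128). cpr-1, a gut cathepsin B, was at 161, 253, 422, 53.8 and 63.9 CPM at Day 13, against 946, 1440, 1340, 1920 and 1720 CPM at L4 (-3.30 ± 0.62, adjusted p = 0.00292). Its relative cpr-2 moved the other way, at 39.4, 19.6, 40.7, 3.03 and 5.76 CPM at Day 13, against 0.545, 0.302, 0.0386, 0.0843 and 0.0588 CPM at L4 (6.62 ± 0.63, adjusted p = 0.000106). act-5, the actin of the microvilli, was at 3.92 to 20.1 CPM at Day 13 and 27.5 to 582 CPM at L4 (-3.85 ± 0.53, adjusted p = 0.000587).

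The lysozymes, which digest bacterial walls, split: 4 of 10 tested were higher and 5 lower (median -0.96). ilys-3 was at 1700, 987, 1890, 663 and 567 CPM at Day 13, against 15.8, 33.6, 24.9, 76.6 and 51.1 CPM at L4. ilys-5 ran the other way, at 63.8, 260, 244, 28.3 and 32.1 CPM at Day 13, against 3370, 8200, 4720, 2910 and 3960 CPM at L4. Neither gene overlapped between ages (ilys-3 4.89 ± 0.69, adjusted p = 0.000703, and ilys-5 -5.73 ± 0.53, adjusted p = 9.68e-05). ilys-2 (3.98 ± 0.52) and lys-7 (2.35 ± 0.41) were higher and lys-4 (-6.26 ± 0.51) and lys-8 (-2.26 ± 0.37) lower.

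Of 13 saposin-like proteins, which act on membranes of ingested microbes, 9 were lower and 1 higher (median -1.48). spp-17 was at 1.87 to 15.1 CPM at Day 13 and 397 to 1260 CPM at L4 (-6.60 ± 0.53, adjusted p = 6.25e-05), and spp-15 was the 1 that rose (1.65 ± 0.28, adjusted p = 0.00159). Of 184 C-type lectin genes with a count, 49 passed the filter, 29 of them lower and 10 higher (median -1.74). clec-63 was at 66.8 to 299 CPM at Day 13 and 513 to 830 CPM at L4 (-2.12 ± 0.47, adjusted p = 0.00626). clec-87, found in eggshells, was at 35.6 to 99.6 CPM at Day 13 and 0.38 to 15.7 CPM at L4 (4.16 ± 1.18, adjusted p = 0.0196).

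Classes of intestinal genes that the study defined as regulated by ELT-2, the GATA factor of the gut, were also counted. The classes came from RNAi experiments in other libraries. Of the General Intestinal class, 80 of 103 genes passed the filter, and 66 were lower and 6 higher (median -1.96). Of the Intestinal Establishment class, 29 of 54 tested were lower and 6 higher (-1.02), and of the Adult Function class 21 of 35 were lower and 5 higher (-1.07). In that order the lower counts with plain library totals were 42, 19 and 12, with 16 higher in the Intestinal Establishment class and 11 higher in the Adult Function class. Without letter E, 8 of the Adult Function class were higher. elt-2 itself was at 0.79, 1.24, 1.1, 1.18 and 0.915 CPM at Day 13, against 0.712, 0.948, 1.16, 2.32 and 3.47 CPM at L4, and was not called (-0.50 ± 0.41, adjusted p = 0.338). Among 6 tested GATA factors the 2 called were higher: egl-18 (3 to 8.91 CPM at Day 13 and 0.54 to 2.91 CPM at L4, 1.69 ± 0.31, adjusted p = 0.00247) and egl-27 (1.74 ± 0.34, adjusted p = 0.00369).

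On TMM-scaled values genes of lipid metabolism were mostly lower. Of 12 fatty acid desaturases and elongases 9 were lower and 1 higher (median -1.14, 5 lower without A or without the block, and none higher without C). With plain library totals 3 of these were lower and 1 higher (-0.26). elo-5, an elongase of branched-chain fatty acids, was at 3.22 to 16.9 CPM at Day 13 and 20.2 to 26.6 CPM at L4 (-1.48 ± 0.43, adjusted p = 0.0201, 0.115 without A). Of 47 genes of acyl-CoA metabolism 26 were lower and 4 higher (-1.18), but 17 lower and 14 higher with plain library totals (-0.27). ech-7, an enoyl-CoA hydratase, was at 19.2 to 43.2 CPM at Day 13 and 215 to 341 CPM at L4 (-3.48 ± 0.35, adjusted p = 0.000124). Of 15 lipid-binding proteins 4 (26.7%, against 28.3% of all genes) were higher and 6 (40%, against 29.9%) lower (-0.60, 0.34 with plain library totals). far-6, which binds fatty acids and retinol, was at 21.9 to 49.6 CPM at Day 13 and 3.49 to 7.17 CPM at L4 (2.71 ± 0.41, adjusted p = 0.000991), while the acyl-CoA-binding acbp-1 was lower (-1.68 ± 0.38, adjusted p = 0.00697).

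Metal-handling genes were higher more often than lower, 8 against 4 of 18 (median 0.68), with 1 lower without A or C and 2 without B, without D or without the block. mtl-1, a metallothionein that binds zinc and cadmium, was at 1170, 556, 1320, 189 and 217 CPM at Day 13, against 28.4, 11.6, 11.7, 13.1 and 18 CPM at L4. Every Day 13 library lay above every L4 library (5.03 ± 0.61, adjusted p = 0.000309). ftn-1, a ferritin, which stores iron, was at 3.19 to 20.2 CPM at Day 13 and 0.335 to 1.35 CPM at L4 (3.85 ± 0.65, adjusted p = 0.00166).

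Glutathione transferases, which couple glutathione to toxic compounds, were lower in 9 and higher in 1 of 14 tested (median -2.27), yet as a family they held more of each library: 0.0515% to 0.176% at Day 13 and 0.0051% to 0.0399% at L4. The 1 that rose was gst-24, at 651, 535, 757, 652 and 321 CPM at Day 13, against 23.8, 12.7, 14.5, 37.1 and 57.2 CPM at L4. It lay apart in every letter (4.54 ± 0.58, adjusted p = 0.000425). gst-26 (-7.27 ± 0.54, adjusted p = 5.75e-05) and gst-20 (-2.75 ± 0.44, adjusted p = 0.00122) were among those that fell. Short-chain dehydrogenases gave 10 lower and 1 higher of 19 (-0.91, 0.04 with plain library totals, 6 lower without B or C), the 1 being dhs-26 (4.94 ± 0.85, adjusted p = 0.00187). This family too held more of each library, 0.0241% to 0.0398% at Day 13 and 0.00745% to 0.0157% at L4.

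Oxidant defence genes gave 4 in each direction of 17 tested (23.5% each way, against 28.3% higher and 29.9% lower of all genes). Their median was -0.47 (-0.04 in A to C, -1.14 in D and E, 0.47 with plain library totals). Without D 1 was higher, and without the block 2 were. sod-5, a cytosolic superoxide dismutase, was at 0.61 to 5.53 CPM at Day 13 and 0.169 to 2.84 CPM at L4 (1.41 ± 0.36, adjusted p = 0.0129). msra-1, which repairs oxidized methionine, was at 0.371 to 1.11 CPM at Day 13 and 18.4 to 48.8 CPM at L4 (-5.65 ± 0.45, adjusted p = 6.02e-05), and the mitochondrial peroxiredoxin prdx-3 was lower (-1.68 ± 0.32, adjusted p = 0.00292).

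Of 38 antimicrobial peptide genes 19 were lower (50%, against 29.9% of all genes) and 10 higher (26.3%, close to the 28.3% of all genes), with a median of -1.02. cnc-2, a caenacin peptide of the epidermis, was at 199, 276, 206, 29.2 and 19.1 CPM at Day 13, against 25, 14.3, 29.4, 9.83 and 4.88 CPM at L4. It was higher in each letter (2.71 ± 0.46, adjusted p = 0.00175), as were cnc-4 (2.66 ± 0.39) and nlp-34 (1.78 ± 0.38). nlp-24 was at 22.9, 54.9, 29.1, 4.67 and 2.75 CPM at Day 13, against 1520, 3030, 2770, 815 and 1780 CPM at L4 (log2 change -6.97 ± 0.66, adjusted p = 0.000106). nlp-33 (-4.83 ± 0.45) and fipr-21 (-4.27 ± 0.37) fell too, without overlap.

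The dod and dct genes were named for their response to the insulin receptor pathway, and 5 of 14 were higher and 7 lower (median -0.80, 0.12 with plain library totals, 4 lower without B or C). dct-8 was at 594, 317, 556, 228 and 268 CPM at Day 13, against 2.93, 1.08, 1.27, 0.675 and 0.411 CPM at L4. That was an increase of 8.44 ± 0.49 on the log2 scale (adjusted p = 5.28e-05), with 8.19 in A to C and 8.82 in D and E. dod-3 was higher (1.96 ± 0.56, adjusted p = 0.0192), and dct-16 was lower, at 21.5 to 355 CPM at Day 13 and 919 to 2630 CPM at L4 (-4.19 ± 0.61, adjusted p = 0.000793).

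Neuropeptide genes were lower more often than higher over all letters, which held in D and E but not clearly in A to C. FMRFamide-like neuropeptides were higher in 1 and lower in 8 of 18 (median -0.68), but the median was 0.55 in A to C and -1.98 in D and E, and 0.19 with plain library totals. In A to C 6 were higher and 5 lower of 15, and in D and E 0 and 19 of 26. flp-24 was at 0.649 to 3.2 CPM at Day 13 and 1.17 to 10.3 CPM at L4 (-1.38 ± 0.30, adjusted p = 0.00574). The log2 change of flp-33 was -1.07 in A to C and -4.28 in D and E (difference between sets, adjusted p = 0.000823). Other neuropeptide-like proteins were higher in 5 and lower in 16 of 35 (-0.76, 0.19 with plain library totals). In A to C 10 were higher and 11 lower of 31 (-0.14), and in D and E 2 and 27 of 40 (-2.3). The lowest change of this list, -6.97, is that of nlp-24, which was also counted among the antimicrobial peptides.

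Insulin-like peptides signal through the receptor DAF-2, and 4 of 14 tested (28.6%, against 28.3% of all genes) were higher and 7 (50%, against 29.9%) lower (median -0.89, 0.03 with plain library totals, 2 higher without A and 3 lower without the block). The median of the list was -0.13 in A to C and -2.0 in D and E. ins-27 was at 4.91, 4.54, 5.11, 5.26 and 4.46 CPM at Day 13, against 50.7, 122, 58.3, 101 and 124 CPM at L4. The Day 13 libraries were nearly alike and all far under the L4 libraries (-4.14 ± 0.39, adjusted p = 0.000101). ins-34, at 0.992 to 7.79 CPM at Day 13 and 0 to 0.419 CPM at L4 (4.91 ± 0.67, adjusted p = 0.000563), and ins-7, at 0.734 to 4.7 CPM at Day 13 and 0.0588 to 0.38 CPM at L4 (2.87 ± 0.45, adjusted p = 0.00115), were higher. daf-2, the receptor gene, was at 1.14 to 1.76 CPM at Day 13 and 0.251 to 0.54 CPM at L4 (1.84 ± 0.37, adjusted p = 0.00428). daf-16, the transcription factor it restrains, was at 2.46 to 4.69 CPM at Day 13 and 2.41 to 3.13 CPM at L4 (0.19 ± 0.28, adjusted p = 0.596).

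Of 15 tested synaptic genes 5 (33.3%, against 28.3% of all genes) were higher and 9 (60%, against 29.9%) lower. Their median was -1.35 (-0.59 in A to C and -1.66 in D and E), and 3 were higher without D. With plain library totals 6 synaptic genes were higher and 3 lower (-0.4). unc-64, the syntaxin of the vesicle fusion machinery, was at 21.6, 28, 27.7, 5.2 and 4.35 CPM at Day 13, against 7.37, 5, 6.14, 3.71 and 2.17 CPM at L4, higher in each letter (1.55 ± 0.37, adjusted p = 0.00877). snb-1, the synaptobrevin of the same machinery, was at 7.04 to 14.1 CPM at Day 13 and 2.47 to 4.82 CPM at L4, without overlap (1.36 ± 0.24, adjusted p = 0.00234). The lower members of the list with the highest means were ida-1, of dense-core vesicles (-2.08 ± 0.34, adjusted p = 0.0014), sbt-1 (-1.35 ± 0.34, adjusted p = 0.0116) and egl-21, a carboxypeptidase of neuropeptide processing (-1.51 ± 0.51, adjusted p = 0.0378, 0.118 without D). Of 11 tubulins 5 were lower and none higher (-0.67, 0.26 with plain library totals). Tubulins as a family nevertheless held more of each library, 0.548% to 0.777% at Day 13 and 0.283% to 0.422% at L4, without overlap. mec-7, the beta tubulin of touch receptor neurons, was at 0.839 to 7.02 CPM at Day 13 and 27.4 to 49.2 CPM at L4 (-3.49 ± 0.54, adjusted p = 0.00107).

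Most autophagy genes were higher. Of 23 tested 19 were higher and none lower (median 1.28, 1.00 in A to C and 1.81 in D and E). They held 0.00864% to 0.028% of a library at Day 13 and 0.00197% to 0.00585% at L4. lgg-1, the ubiquitin-like protein that coats the autophagosome, was at 14.3, 22.8, 15.7, 22.4 and 18.4 CPM at Day 13, against 4.32, 7.06, 6.1, 5.02 and 6.99 CPM at L4. The groups did not overlap (1.67 ± 0.28, adjusted p = 0.0015). atg-3, which conjugates it to lipid, was at 30.1, 34.1, 37.4, 10 and 13.6 CPM at Day 13, against 10.2, 7.8, 5.63, 8.22 and 10.1 CPM at L4 (1.43 ± 0.44, adjusted p = 0.0263). epg-2, an adaptor for protein aggregates, rose by 2.55 ± 0.32 (adjusted p = 0.000394).

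F-box proteins, which choose substrates for ubiquitin ligases, had 255 genes with a count but only 22 past the filter, 13 of them higher and 1 lower (median 1.63). Within sets the median was 0.92 over 22 tested in A to C and 4.00 over 40 tested in D and E, so the members differ. fbxb-100 was at 1.87 to 12.2 CPM at Day 13 and 0 to 0.335 CPM at L4 (6.08 ± 0.66, adjusted p = 0.000176). MATH and BATH proteins were higher in 7 and lower in 3 of 18 (0.53, with 2 higher without letter D). Argonautes and other RNAi genes were higher in 9 and lower in 1 of 23 (0.49, with 5 higher without D, 6 higher without the block, and 0 to 2 lower when a letter was left out). ergo-1, an Argonaute of the oocyte and embryo, was at 3.95 to 6.79 CPM at Day 13 and 0.647 to 1.47 CPM at L4 (2.46 ± 0.34, adjusted p = 0.000653), and mut-2, which adds tails to RNA in the mutator complex, rose by 1.16 ± 0.36 (adjusted p = 0.0269). rde-1, the Argonaute mutated in this strain, was at 0.202 to 1.64 CPM at Day 13 and 0.116 to 0.56 CPM at L4 and was not called (adjusted p = 0.45). unc-119, also mutated, was at 0.0763 to 0.903 CPM at Day 13 and 0 to 0.377 CPM at L4, too low to be tested.

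Of 22 regulators of lifespan 6 (27.3%, against 28.3% of all genes) were higher and 2 (9.09%, against 29.9%) lower. Their median was 0.44, with 13 higher with plain library totals, 3 higher without D and 1 lower without B or C. akt-1, a kinase of the insulin pathway, rose by 1.19 ± 0.36 (adjusted p = 0.0238). nhr-80, a nuclear hormone receptor of fat metabolism, was at 5.15 to 16 CPM at Day 13 and 29.7 to 39.5 CPM at L4 (-1.73 ± 0.34, adjusted p = 0.00388). Transthyretin-related genes encode small secreted proteins in a family that is large in nematodes. Of 36 tested 9 (25%, against 28.3% of all genes) were higher and 14 (38.9%, against 29.9%) lower (-0.46, 0.48 with plain library totals). Summed, the family held 0.144% to 0.612% of a library at Day 13 and 0.084% to 0.161% at L4, higher in all 5 letters. ttr-45 was at 70.4 to 884 CPM at Day 13 and 8.14 to 32 CPM at L4 (4.28 ± 0.56, adjusted p = 0.000465), and ttr-16 was lower (-1.47 ± 0.36, adjusted p = 0.0103).

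Genes in use as references for qRT-PCR were also read. Of 6 tested, htz-1 and let-70 were called higher and none lower. htz-1, the histone H2A.Z gene, was at 876, 836, 815, 108 and 157 CPM at Day 13, against 113, 50, 55.8, 31.6 and 51.8 CPM at L4 (2.85 ± 0.51, adjusted p = 0.00228). let-70, a ubiquitin-conjugating enzyme, was at 12.7 to 18.2 CPM at Day 13 and 6.85 to 15.6 CPM at L4 (0.75 ± 0.28, adjusted p = 0.0537, 0.158 without D). The other 4, tbb-2 (0.25 ± 0.36), pmp-3 (0.30 ± 0.34), cdc-42 (0.61 ± 0.30) and iscu-1, listed as Y45F10D.4 (0.01 ± 0.27), were not called, but with plain library totals all 6 of the list were called higher.

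By size alone, the largest increases were mostly of small or little-known genes. C54C8.12, a protein-coding gene on chromosome I (WBcel235, 12456926 to 12457174), was at 100 to 406 CPM at Day 13 and 0 to 0.172 CPM at L4 (12.17 ± 0.85, adjusted p = 5.48e-05). nlp-39, a neuropeptide-like gene on the same chromosome (12461656 to 12461895), was at 91.5 to 278 CPM at Day 13 and 0 to 0.0861 CPM at L4 (11.91 ± 0.62, adjusted p = 4.88e-05). ule-1 was at 7460, 6950, 8020, 1820 and 1490 CPM at Day 13, against 310, 12.2, 213, 0.0422 and 0.0588 CPM at L4 (9.12 ± 2.05, adjusted p = 0.00742). At L4 these genes were under the limit of detection in D and E. C54C8.12 had 0 to 4 counts and nlp-39 0 to 2 counts per L4 library, so their fitted changes rest on few counts at L4. The other 9 of the 12 largest increases were scl-20, clec-266, dct-8, Y71F9AL.7, cav-1, a caveolin, skr-8, a Skp1-related gene, Y57G11C.35 and sup-39, both annotated as small nuclear RNA, and the non-coding mrpr-1.

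Among the 12 largest decreases were 5 col collagens (col-161, col-73, col-168, col-170 and col-146) and the body-shape collagen dpy-4. col-73 was at 0.0381 to 3.87 CPM at Day 13 and 1390 to 8680 CPM at L4 (-12.06 ± 1.11, adjusted p = 9.16e-05). The uncharacterized C02E7.6 was at 0.0763 to 5.39 CPM at Day 13 and 751 to 9680 CPM at L4 (-12.03 ± 1.15, adjusted p = 0.000106), and phat-4, of a family of pharyngeal gland secretions, at 0 to 0.131 CPM at Day 13 and 34.9 to 233 CPM at L4 (-11.73 ± 0.81, adjusted p = 5.39e-05). At Day 13 phat-4 lay near the limit of detection, so the size of its fitted change rests on few counts there. The remaining 4, nspb-6, nspb-11, C29F3.3 and abu-6, had no count in any Day 13 library, which allows up to 0.279 CPM in the shallowest of them, and no fold is given. At L4 nspb-6 was at 31 to 129 CPM and abu-6 at 4.6 to 25.2 CPM. Of 8 tested genes of the nspa, nspb, nspc and nspe peptide families, 6 were lower and 1 higher (median -3.60).

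By chromosome, over all letters, the X chromosome and the mitochondrial genome had larger shares of decreases than the autosomes. On X 378 of 994 tested genes (38%) were lower and 237 (23.8%) higher, with a median of -0.36. Chromosomes I and III had more increases than decreases: 545 higher and 431 lower of 1706 on I (median 0.29, 360 higher and 355 lower without letter D), and 463 higher and 358 lower of 1577 on III (0.27). On V 426 were higher and 529 lower of 1546 (-0.06). With plain library totals every nuclear chromosome had a positive median, 0.56 on X and 1.21 on I, so X stayed the lowest of them. The X median was -0.11 in A to C and -0.59 in D and E. In A to C it lay close to those of V (-0.07) and IV (-0.06), which were 0.06 and 0.17 in D and E. On X 298 genes were higher and 347 lower of 955 in A to C, and 264 and 489 of 1138 in D and E. The low place of X was thus slight in A to C. Genes of the same list share chromosomes, and the part of the lists above in these counts was not tested.

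**Figure D5:**
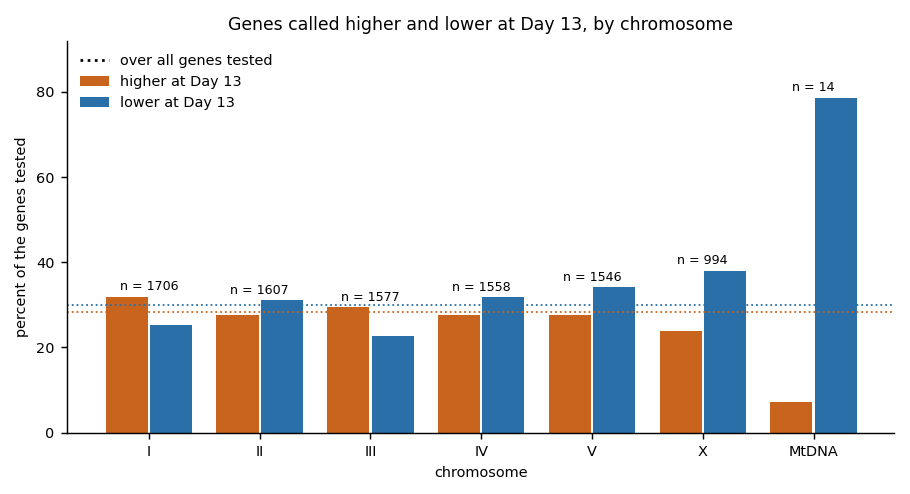
Percent of the genes tested that were called higher (left bar) and lower (right bar) at Day 13 on each chromosome, with the share over all genes tested as dotted lines (28.3% higher and 29.9% lower) and the number of genes tested above the bars. On X 38% were lower and 23.8% higher, on chromosome I 25.3% and 31.9%, and in the mitochondrial genome 11 of 14 were lower; with plain library totals the median of every nuclear chromosome was above 0.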

How the data were processed

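3SEQ libraries of whole control worms (SD1965) were read at Day 13 of adulthood and at L4, 5 biological replicates each. Per the labels and the methods of the study, the authors mapped the reads (Bowtie 0.12.7 in the submitters' processing notes) and counted them per gene. The deposited values are these raw counts, without normalization. The annotation used for counting and the use of strand are not given in the sources used here, so genes that overlap on the opposite strand or have near-identical copies have uncertain counts. Of 21383 genes, 20881 (97.7%) matched the WBcel235 annotation of Ensembl release 115, and 142 symbols were duplicated. In the 10 libraries 18065 genes had a count. The 3 columns that matched no sample were not used.

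The main test was the quasi-likelihood test of edgeR 4.0.16 (R 4.3.3) with filterByExpr, TMM factors, robust dispersion and the letter as a block, with p adjusted by the Benjamini-Hochberg method over all genes tested and a threshold of 0.1. Deviations from the group means correlated at 0.401 to 0.655 between same-letter libraries, at 0.338 to 0.554 between different letters within A to C or within D and E, and at -0.591 to -0.371 between these sets, and 7 of 10 libraries correlated best with their own letter. The split into sets was larger in these values than the match of single letters. CPM used TMM-scaled totals, and the share of a list used plain totals. A count of 0 allows up to 3 counts, and this limit covers counting error only. No libraries were duplicates (lowest chi-square per degree of freedom 55). On simulated data for this comparison (9063 genes, 200 changed), the fit recovered 0.5% of the genes changed by 1 on the log2 scale, 73% of those changed by 2 and 97% of those changed by 3, and 50%, 8.18% and 8.92% of its calls were false. Without the block 0%, 0% and 60.5% were recovered. The 200 changed are far fewer than the 5280 of 9063 genes (58.3%) called in the data. Recovery with so large a share changed was not tested, so these rates need not hold for the main fit. The 50% rests on few calls, since only 0.5% of the 200 were recovered at a change of 1.

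Alternatives were the fit without the block, the size factors and test of DESeq2 1.42.0, voom of limma 3.58.1, totals without the top 3% of genes, plain library totals (chosen after the data were seen), no filter, a minimum of 10 CPM in 5 libraries, all 20 libraries, each set of letters alone, each letter left out, an adjusted p under 0.01 and a change of at least 2-fold. Members and lists were chosen with earlier results of these data known. The genes named were the 12 largest increases and decreases with the same direction in all 5 letters and a mean of at least 10 CPM at the higher age, the 10 highest means at each age, up to 3 called genes per list and direction by mean CPM, elt-2, unc-119, rde-1 and 6 qRT-PCR reference genes. Outside this rule stood col-19, vit-2, vit-6, ND1, COX3, ND6, pcn-1, oma-2, act-5, daf-2, daf-16 and gpd-2, and in the closing section vit-3, vit-4 and vit-5.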

Additional observations from a re-analysis of the deposited data

Results flagged for a closer look

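Among 200 groups of 5 libraries checked (60 lists and 40 genes at each age), 7 had 1 library far from the other 4, and chance gives about 1 in 20. Day 13 B stood high for col collagens (1.99% of its counts, the others 1.01% to 1.27%), for msp-64 (43.1 CPM, the others 1.6 to 11.3 CPM) and for nspd-2 (171 CPM, the others 2.86 to 43.7 CPM). Day 13 D stood high for the citrate cycle (0.0676%, the others 0.0518% to 0.0546%) and for the Adult Function class of ELT-2-regulated genes (0.0334%, the others 0.0258% to 0.0271%). L4 D stood high for the proteasome (0.159%, the others 0.107% to 0.108%) and for longevity regulators (0.00892%, the others 0.00384% to 0.00468%).

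The age change of 5 yolk protein genes differed between the sets of letters by the edgeR interaction of age with set. The change in D and E minus that in A to C was 8.36 on the log2 scale for vit-2 (adjusted p = 0.00181), 9.85 for vit-3 (adjusted p = 0.0028), 11.38 for vit-4 (adjusted p = 0.000346), 13.76 for vit-5 (adjusted p = 0.000757) and 8.54 for vit-6 (adjusted p = 0.000126). The L4 libraries of D and E held 0.00216% and 0.000336% of their counts in yolk proteins, and those of A to C 0.333% to 0.827%. The labels give no batch for these sets, and what the difference between these L4 libraries comes from was not tested.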

How the results depend on the processing

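Without the block, which takes libraries of a letter as pairs, 4136 genes were called (1986 higher, 2150 lower), against 5280 with it. Among the genes named and tested, 24 lost a call without the block, 1 gained one and none changed direction. A minimum of 10 CPM in 5 libraries left 1807 genes to test and gave 1268 calls (646 higher, 622 lower), and an adjusted p under 0.01 gave 2620 (920 higher, 1700 lower). With plain library totals, chosen after the data were seen, 4804 were higher and 1631 lower, 74.7% and 25.3% of the calls, against 48.6% and 51.4%. Leaving out 1 letter at a time gave 4161 to 5222 calls, 1838 to 2862 higher and 2181 to 2574 lower, the fewest calls without D. Across DESeq2, its size factors, voom, totals without the top 3% of genes, no filter, all 20 libraries, each set of letters alone and a change of at least 2-fold, 4499 to 7247 genes were called. Of the 155 named genes with a call, 12 lost it when some letter was left out.

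List medians minus the all-gene median turned sign in 21 of 936 pairs of list and setting, and in 47 of 60 lists never. Yolk proteins turned to -1.59 without the block, -0.12 with plain totals, -0.4 with all 20 libraries and -2.27 in A to C, and ranged from -1.3 (without E) to 2.8 (without A) when a letter was left out. Chaperones turned to 0.08 without a filter and ranged from -0.12 to 0.02 (without C). With at least 10 CPM the turned medians were 0.18 for abu and pqn genes, -0.1 for germ cell and meiosis genes, 0.05 for aminoacyl-tRNA synthetases, 0.14 for the proteasome, 2.56 for lysozymes, 0.76 for dod and dct genes and 1.64 for transthyretin-related genes. In A to C alone they were -0.03 for germ cell and meiosis genes, 0.03 for translation factors and 0.5 for FMRFamide-like neuropeptides. In D and E alone they were -0.14 for GATA factors (-0.08 without the block) and -0.04 for longevity regulators. Among genes, vit-3 (4.01), vit-4 (7.79) and col-19 (7.77) turned in D and E alone and vit-6 (-1.08) in A to C alone. The cause of these turns was not tested. The planned share of promoters with a motif was not run, and 24 pairs with under 5 members tested were left out. Depth limits the low genes of D and E most, where 3 counts came to 0.129 to 0.279 CPM.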
